A study of Mus musculus with 6 samples.

Results

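Germ cells store many messenger RNAs and translate them later, and the genes described here encode RNA-binding proteins and regulators that take part in this control. The members are 10 genes: Dazl, Boll, Ddx4, Ddx25, Ybx2, Cpeb1, Papolb, Paip2, Paip2b and Pabpc1. They were chosen by name, through the RefSeq accession of each mRNA probe, out of 19053 genes that the mRNA probes named. The choice was made with earlier results of these data known. They were measured by 12 probes, with 2 probes each for Boll and Ddx4.

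The study compared whole testis of male C57/BL6 mice at 2 ages, 6 days after birth (neonatal) and 8 weeks (adult). Each age had 3 biological replicates, each from pooled animals and read in 1 colour on an array of its own. No treatment or mutation was involved. Values below are normalized log2 signals, with 0 set at the array's 75th percentile of signal after background subtraction. Array values are given in the order of replicates 1, 2 and 3. The percentile was 2956, 2513 and 1396 on the neonatal arrays. On the adult arrays it was 1853, 1422 and 745.3.

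DAZ family proteins bind the untranslated ends of germ cell transcripts and recruit the poly(A) binding protein, which favours translation. Y-box proteins package and hold mRNAs in a silent state, and DEAD-box helicases remodel RNA and protein complexes in germ cell granules. CPEB1 and cytoplasmic poly(A) polymerases govern the length of the poly(A) tail, while PAIP2 proteins displace the poly(A) binding protein from it.

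All 12 member probes were well above background on all 6 arrays. The scanner software marked a spot as an outlier on at least 1 array for each of them. Replicate 3 of both ages shared a scan identifier, and the other 4 arrays shared another. Outliers made up 30.7% and 25.4% of the spots on the neonatal and adult arrays of replicate 3, and between 6.11% and 10.7% on the others. With marked spots left out, 5 probes kept 2 complete pairs and could be tested, and all 5 rested on replicates 1 and 2, since their spot in neonatal replicate 3 was marked. The other 7 probes could be tested only with marked spots kept. Per-array values below include marked spots.

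With marked spots left out, 3 of the 5 tested member probes were at least 5-fold higher in adult testis with an adjusted p of at most 0.05, and 0 were called lower. The same call was made for 12.6% of all tested mRNA probes in the higher direction and 13.6% in the lower direction. On the adjusted p alone, 4 were higher and 1 was lower, against 29.9% and 45.5% of all tested mRNA probes. With marked spots kept, 5 of 12 probes were called higher and 1 lower at 5-fold, against 12.8% and 15.2% of mRNA probes. The 5 include both probes of Boll, since counts here are of probes and not of genes. On the adjusted p alone, 7 were higher and 4 lower, against 30.0% and 49.3%. The median log2 change of the members was 2.36 over the 5 probes and 1.92 over the 12 probes, beside medians of -0.39 and -0.49 over all tested mRNA probes. Within replicate 3, the pair on the other scan, all 12 differences had the sign of the change over all arrays, from -3.56 for Paip2b to 8.46 for Papolb. That change includes the pair itself, so the 2 are not independent. Every one of these 12 pairs also holds a marked spot, so none of them entered the fit with marked spots left out. For the NM_001145885 probe of Ddx4 the pair differences were -0.48, 1.6 and 0.06. In whole testis, fewer cells of a type and less RNA per cell cannot be told apart.

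**Figure D1:**
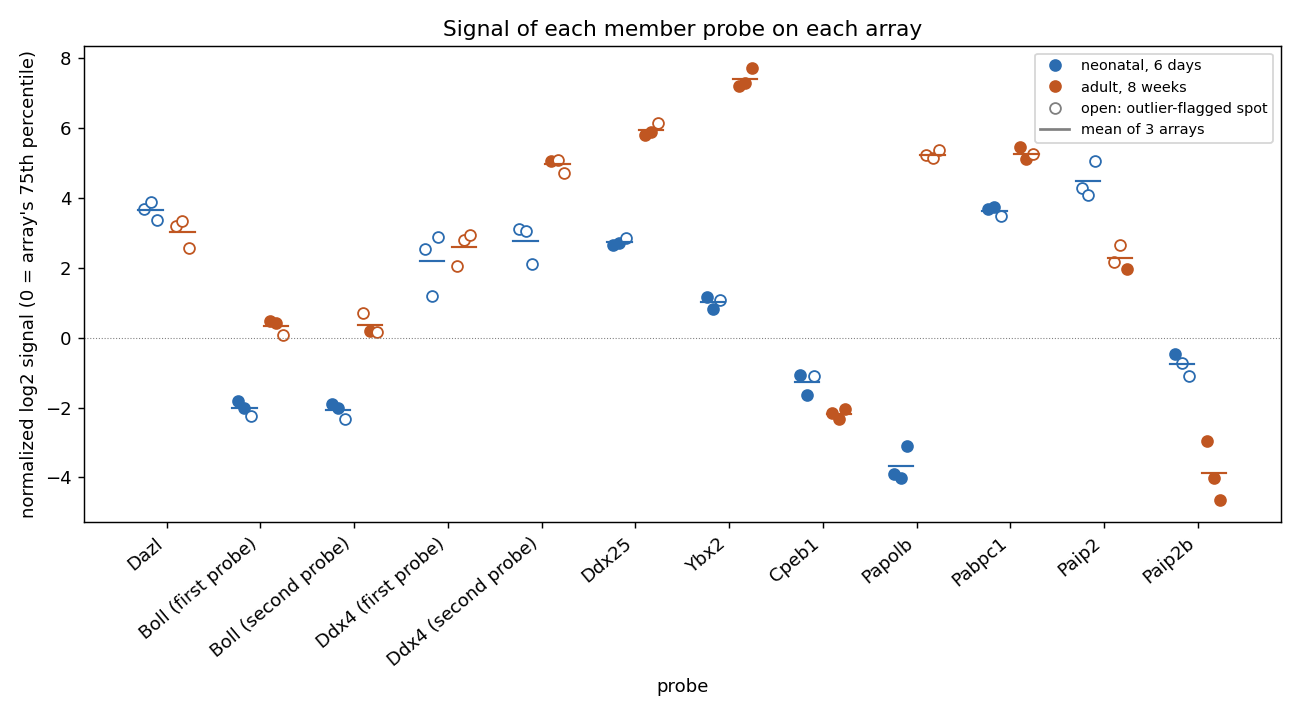
Normalized log2 signal (vertical axis, 0 is the 75th percentile of the array) of the 12 member probes (horizontal axis) on the 3 neonatal and 3 adult arrays, with open points for spots marked as outliers and lines for the mean of 3 arrays. The first Boll probe is NM_001113367 and the first Ddx4 probe NM_001145885, and the ages overlap for the first Ddx4 probe, whose means were 2.19 and 2.59.

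Dazl encodes a germ cell RNA-binding protein that is required for germ cell development. Its probe read 3.69, 3.87 and 3.36 in neonatal testis and 3.20, 3.33 and 2.55 in adult testis. The adult values lay below the neonatal ones without overlap, by a small margin. All 6 spots were marked as outliers. With them kept, the log2 change was -0.61 (SE 0.13, adjusted p = 0.0114 by limma), a 1.53-fold lower signal. Without the replicate block the change was the same but did not pass (adjusted p = 0.0832), and over 11 alternatives it did not pass in 9. From the median brightness of the spots' pixels the change was -0.34, with an adjusted p of 0.103, so it did not pass.

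Boll encodes the DAZ family member that acts in meiotic and later male germ cells. The NM_001113367 probe read -1.81, -2.01 and -2.24 in neonatal testis and 0.48, 0.41 and 0.06 in adult testis. The NM_029267 probe read -1.89, -2.02 and -2.34 in neonatal testis and 0.70, 0.19 and 0.17 in adult testis. Both probes were higher on every adult array than on any neonatal array. With marked spots left out, the first rose by 2.36 on the log2 scale (SE 0.14, adjusted p = 0.00141), which is 5.12-fold and close to the threshold of 5. It fell below 5-fold with quantile normalization (2.27), a shift to the median (2.09), normexp (2.28) and the authors' log2 values (2.07), and its adjusted p stayed under 0.05 in each. It was also below 5-fold with marked spots kept and replicate 2 left out (2.29) and, with no block, without neonatal replicate 3 (2.23), adult replicate 1 (2.26) or adult replicate 2 (2.29). Over all spots, the changes of both probes were 2.34 and 2.44, with adjusted p of 0.000138 and 0.000194. For the NM_029267 probe the rise was below 5-fold with the authors' log2 values (2.16) and, with no block, without adult replicate 1 (2.26) or neonatal replicate 3 (2.31).

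Ddx4 encodes the germ cell helicase known as vasa, and its 2 probes differed. The NM_010029 probe read 3.11, 3.05 and 2.11 in neonatal testis and 5.05, 5.08 and 4.72 in adult testis. The NM_001145885 probe read 2.52, 1.18 and 2.88 in neonatal testis and 2.04, 2.78 and 2.93 in adult testis. The NM_010029 probe separated the ages, and the NM_001145885 probe did not. Over all spots, the NM_010029 probe rose by 2.19 (SE 0.18, adjusted p = 0.000569), which is 4.58-fold, and ranged from 1.87 to 2.37 over the alternatives. It was past 5-fold without replicate 1 (2.32) and, with no block, without neonatal replicate 1 (2.37) or neonatal replicate 2 (2.34). The NM_001145885 probe changed by 0.39 (SE 0.44, adjusted p = 0.451). Of their spots, 5 and 6 of 6 were marked as outliers.

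Ddx25 encodes a testis helicase that is needed for the completion of spermatid development. It read 2.65, 2.70 and 2.84 in neonatal testis and 5.80, 5.87 and 6.14 in adult testis. The ages were far apart compared with the spread within them. The log2 change was 3.15 (SE 0.14, adjusted p = 0.000754), an 8.90-fold rise over replicates 1 and 2, and 3.20 with marked spots kept. In replicate 3 alone, the pair on the other scan, the difference was 3.29, with the spots of both ages marked.

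Ybx2 encodes the germ cell Y-box protein that binds and stores mRNAs. It read 1.16, 0.83 and 1.07 in neonatal testis and 7.19, 7.27 and 7.71 in adult testis. Every adult value was above every neonatal one. The rise was 6.24 on the log2 scale (SE 0.18, adjusted p = 0.000354), which is 75.4-fold, and the pair differences with marked spots kept were 6.04, 6.43 and 6.64.

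Cpeb1 encodes the protein that binds the cytoplasmic polyadenylation element. It read -1.06, -1.63 and -1.10 in neonatal testis and -2.15, -2.33 and -2.05 in adult testis. The adult values were lower without overlap. The change was -0.90 (SE 0.18, adjusted p = 0.0214), which is 1.86-fold, and it did not pass in 5 of 29 alternatives. These included no filter on dim probes (adjusted p = 0.112) and the methods' paired test, adjusted (0.181) or not (0.137). With marked spots left out and no block, it also did not pass without adult replicate 1 (0.0862) or adult replicate 2 (0.096).

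Papolb encodes the testis poly(A) polymerase that acts in the cytoplasm of spermatids. It read -3.90, -4.01 and -3.11 in neonatal testis and 5.21, 5.13 and 5.35 in adult testis. The ages lay far apart, and all 3 adult spots were marked as outliers. It rose by 8.91 on the log2 scale (SE 0.19, adjusted p = 1.9e-05) over all spots. By median pixel brightness the rise was 8.69.

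Pabpc1 encodes the main cytoplasmic poly(A) binding protein. It read 3.67, 3.74 and 3.47 in neonatal testis and 5.44, 5.10 and 5.24 in adult testis. The ages did not overlap. The rise was 1.56 on the log2 scale (SE 0.18, adjusted p = 0.00569), which is 2.96-fold and below the 5-fold threshold. With quantile normalization the rise was 0.79. Pabpc1 did not pass in 3 of 27 alternatives. These were no filter on dim probes (adjusted p = 0.0613) and the methods' paired test, adjusted (0.121) or not (0.0817).

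Paip2 and Paip2b encode inhibitors of the poly(A) binding protein. Paip2 read 4.28, 4.09 and 5.05 in neonatal testis and 2.17, 2.66 and 1.97 in adult testis. Paip2b read -0.48, -0.73 and -1.09 in neonatal testis and -2.96, -4.02 and -4.65 in adult testis. Both were lower on every adult array. Over all spots, Paip2 fell by 2.21 on the log2 scale (SE 0.35, adjusted p = 0.00451), a 4.61-fold drop, and Paip2b by 3.11 (SE 0.25, adjusted p = 0.000503), an 8.65-fold drop. Of the Paip2 spots 5 of 6 were marked, and by median pixel brightness its change was -1.65. It was past 5-fold with the authors' log2 values (-2.48), without replicate 2 (-2.59) and, with no block, without neonatal or adult replicate 2 (-2.40 each).

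Among 124 related genes, the paralogs and partners of the members and other regulators of mRNA in germ cells, 119 had a probe. With marked spots left out, 116 of their 164 probes were tested, and 13 were called higher and 15 lower in adult testis at 5-fold, against 12.6% and 13.6% of all tested mRNA probes. Their median log2 change was -0.45, beside -0.39 over all tested mRNA probes. With marked spots kept, 161 were tested, with 18 called higher and 23 lower, against 12.8% and 15.2%.

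**Figure D2:**
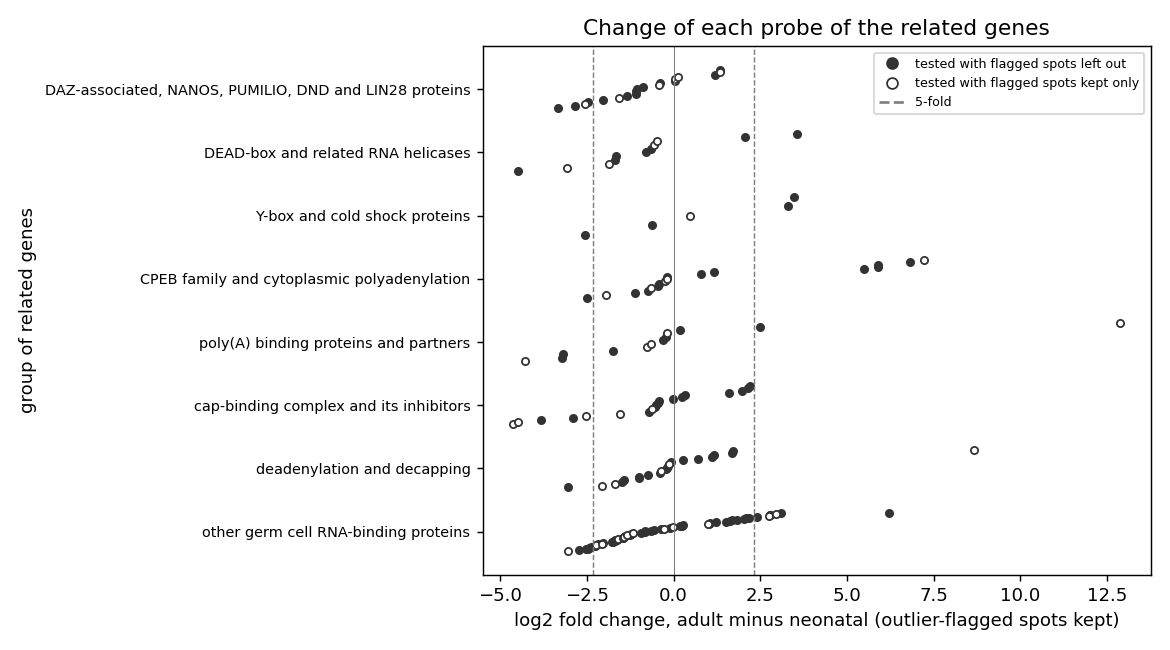
Log2 fold change, adult minus neonatal with marked spots kept (horizontal axis), of each tested probe of the related genes in 8 groups (vertical axis). Each point is a probe, open where it was tested only with marked spots kept, and the dashed lines are at 5-fold. The point farthest to the right is Pabpc2, whose neonatal values lay at the floor, so that its place is set by the floor.

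Among the relatives of the Y-box member, both Ybx3 probes rose, by 3.28 and 3.39 on the log2 scale (adjusted p = 0.000705 and 0.000693). Ybx1 read -4.78, -5.06 and -6.84 in neonatal testis and -4.13, -7.22 and -7.22 in adult testis, and only 3 of these 6 values were well above background. Its change was -0.63 (adjusted p = 0.371). Carhsp1, a cold shock domain protein, fell by 2.56 (adjusted p = 0.00019).

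In the CPEB and polyadenylation group, 4 of 12 tested probes were called higher and 1 lower. Cpeb2 read -0.78, -0.83 and -0.27 in neonatal testis and 5.88, 6.03 and 6.65 in adult testis, and no spot of it was marked. It rose by 6.81 on the log2 scale (SE 0.11, adjusted p = 9.6e-05), which is 112-fold. Cpeb4 was not well above background on any neonatal array and all 3 adult spots were marked. In the fit over all spots the lower bound of its rise was 139-fold. Its neonatal level was not measured, and the log2 change computed against it ranged from 6.51, by median pixel brightness and below that bound, to 7.26. Cpeb3 changed by -0.25 with marked spots kept (adjusted p = 0.466). The somatic poly(A) polymerases did not pass with marked spots left out, with changes of -0.46 for Papola (adjusted p = 0.059) and -0.35 for Papolg (adjusted p = 0.165). Both passed the adjusted p as lower with marked spots kept (0.0189 and 0.0497), and over 27 alternatives Papola passed in 14 and Papolg in 2. Cpsf4l rose by 5.89 (adjusted p = 0.000149), and Cstf2 fell by 2.45 (adjusted p = 0.00169).

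Of the poly(A) binding proteins, Pabpc1l rose by 2.55 on the log2 scale (adjusted p = 0.00144), and the 2 Pabpc4 probes fell by 3.20 and 3.27 (adjusted p = 0.00148 and 0.000707). Pabpc2 was not well above background on any neonatal array and read 5.36, 5.72 and 5.90 in adult testis, with all 3 adult spots marked. In the fit over all spots the lower bound of its rise was 7080-fold. Here too the neonatal level was not measured, and the computed log2 change ranged from 11.23, by median pixel brightness and below that bound, to 13.03. A Paip1 probe changed by -0.21 (adjusted p = 0.195), was well above background on 1 array, and its other probe on none. Pabpc6 had no probe.

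Among the DAZ-associated, NANOS, PUMILIO, DND and LIN28 genes, 0 of 12 tested probes were called higher and 3 lower. The 2 tested Dazap1 probes rose by 1.25 and 1.22 on the log2 scale, below 5-fold (adjusted p = 0.00765 and 0.00727), and a further probe rose by 1.33 with marked spots kept. Nanos2, which acts in undifferentiated spermatogonia, passed the background limit on no adult array. In the main fit the lower bound of its fall was 7.73-fold (adjusted p = 0.000326), but with normexp its log2 change was only -1.09. Nanos1 fell by 2.86 (adjusted p = 0.000943), and Nanos3 changed by -0.25 (adjusted p = 0.334), and passed as lower in 2 of 27 alternatives. Of the helicases, D1Pas1 rose by 3.66 (adjusted p = 0.00168) and Ddx3x fell by 1.61 (adjusted p = 0.0033). Mov10 was called lower in the main fit (adjusted p = 0.000425), with no adult array well above background. Over all spots, the marked spot of neonatal replicate 3 included, the lower bound of its fall was 17.1-fold. With normexp the log2 change of Mov10 was -2.10, below 5-fold.

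The cap-binding group had 0 calls higher and 2 lower among 14 tested probes, Eif4ebp1 with a change of -3.83 and Eif4g1 with -2.97, which did not pass in 3 of 29 alternatives. Over all spots it had 0 higher and 5 lower among 19, among them both Eif4a1 probes (-4.62 and -4.48), a gene named after its values were seen. The deadenylation and decapping group had 0 calls higher and 1 lower among 17, Patl1 with -3.06 (-1.73 with normexp). Over all spots it had 1 higher and 1 lower among 22, and the higher one, Btg4, was also named after its values were seen. It passed the background limit on no neonatal array and in the fit over all spots the lower bound of its rise was 382-fold, with all 3 adult spots marked. By median pixel brightness the computed log2 change was 7.20, below that bound. In the largest group, 5 of 43 tested probes were called higher and 4 lower. The largest of these were Adad1 (5.92) and Ptbp2 (3.03) in the higher direction, and Igf2bp1 (-2.88) and Stau2 (-2.61) in the lower. Adad1 did not pass in 1 of 27 alternatives, and at their smallest Igf2bp1 (-2.25) and Stau2 (-2.08) were below 5-fold.

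Several mRNAs known as targets of these proteins were measured. Prm1 and Prm2, which encode protamines, rose by 12.48 and 14.33 on the log2 scale (adjusted p = 9.6e-05 and 8.5e-05). Tnp1 and Tnp2, which encode transition proteins, rose by 9.27 and 14.19. Of the synaptonemal complex genes, Sycp1 rose by 0.82 (adjusted p = 0.0143). Sycp3 read 2.68, 2.22 and 1.31 in neonatal testis and -0.61, 3.94 and 3.19 in adult testis, so the adult arrays disagreed, and with marked spots kept its change was 0.10 (adjusted p = 0.94).

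Markers of cell types were measured beside the members. The brightest marker of a list is the single probe with the largest signal summed over the 6 arrays, marked spots included, and several probes of 1 gene were not added up. Over 9 spermatid marker probes, 9 were called higher in adult testis with marked spots kept, and their summed signal, as multiples of the 75th percentile, was 0.738, 0.775 and 0.853 in neonatal and 1230, 1450 and 1680 in adult testis. Prm2 was the brightest, though Tnp1 was brighter on all neonatal arrays, and 1 Akap4 probe was below the background limit on all neonatal arrays. Of 8 spermatocyte probes, 7 were higher on the adjusted p, with sums of 24.3, 20.7 and 29.5 and then 140, 151 and 176, and Ldhc was the brightest single probe, with Spo11 spread over 3 probes. The Ldhc spots on both arrays of replicate 3 were marked, and on the others Sycp1 was brighter in neonatal and Piwil1 in adult testis. Of 10 tested spermatogonia probes, 9 were lower and 1 higher, with sums of 125, 132 and 124 and then 26.6, 28.4 and 24.4. Uchl1 was the brightest of these, and Gfra1 passed the background limit on no array.

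All 7 Sertoli cell probes were lower on the adjusted p, with sums of 71.6, 73.5 and 50.8 and then 17.6, 13.3 and 11.9 and Wt1 the brightest, though Clu was brighter on neonatal arrays 1 and 2. Of 8 Leydig cell probes, 4 were higher and 2 lower, with sums of 31.9, 34.9 and 30.1 and then 82.9, 69.4 and 64.1 and Insl3 the brightest, though Hsd3b1 was brighter on all neonatal arrays. All 3 tested peritubular myoid probes and all 6 endothelial probes were lower, with Myh11 and Cdh5 the brightest. The myoid sums were 21.7, 21.9 and 26.8 and then 4.79, 4.35 and 6.57, and Cnn1 passed the background limit on no array. The endothelial sums were 7.89, 9.07 and 15.0 and then 2.19, 1.79 and 3.30. Of 4 macrophage probes, 1 was lower, with sums of 5.27, 5.14 and 4.10 and then 4.65, 4.72 and 4.41 and Mrc1 the brightest, though Csf1r matched or passed it on neonatal arrays 2 and 3 and adult array 3. Of 4 erythroid probes, 2 were higher and 2 lower, with sums of 17.1, 21.2 and 18.6 and then 5.59, 7.40 and 5.98 and Hbb-bt the brightest, though both Alas2 probes were brighter on adult array 1. The part of these cell types in the members' results was not tested.

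Of 4 tested epididymis probes, 1 was higher on the adjusted p, that of Rnase10. Rnase10 lay at the floor on all neonatal arrays and passed the background limit on none of them, so the size of its rise depends on the floor. The summed signal of the epididymis probes was 5.69, 0.254 and 6.18 in neonatal and 0.210, 0.372 and 0.540 in adult testis. Crisp1 gave 5.39 and 5.67 of it on neonatal arrays 1 and 3, and Adam7 was brighter on the other 4 arrays. Crisp1 read 2.43, -4.35 and 2.50 in neonatal testis and -4.23, -4.37 and -5.30 in adult testis. It was high on neonatal arrays 1 and 3 only. The part of this in the members' results was not tested.

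Promoter sequences from RefSeq (GRCm38.p6), 250 bases before to 50 after the start, were used for 8 of the 10 members, in 10 entries. Any member entry on a chromosome left out of the search was not used, while the 32851 promoters were not limited in this way. Paip2 and Pabpc1 had no entry among the 10, so their promoters were not described. Searched on both strands were TGACGTCA (the cyclic AMP response element), CTGATTGG (the Y-box), GTTGCC (an RFX half-site), CACGTG (the E-box) and TGCGCA (the core of the NRF1 site). Among 32851 promoters they were held by 1.79%, 4.10%, 12.5%, 7.15% and 7.76%, in that order. Among the 10 entries of members they were held by 0, 3, 1, 4 and 2. A match describes the letters and not a bound site. Entries with a match are shown for the members with changes above 4-fold, on the strand of the gene, with the matched letters in capitals. The entries of Cpeb1, with the E-box letters, and Dazl, with the NRF1 core, are not shown, since their changes were below 2-fold.
Boll, chr1:55362679-55362978, minus strand: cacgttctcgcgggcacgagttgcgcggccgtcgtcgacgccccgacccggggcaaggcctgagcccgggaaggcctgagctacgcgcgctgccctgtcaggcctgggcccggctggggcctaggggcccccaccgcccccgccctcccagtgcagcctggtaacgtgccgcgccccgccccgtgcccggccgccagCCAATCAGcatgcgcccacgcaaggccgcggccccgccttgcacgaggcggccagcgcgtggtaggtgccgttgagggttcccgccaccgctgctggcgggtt
Boll, chr1:55363704-55364003, minus strand: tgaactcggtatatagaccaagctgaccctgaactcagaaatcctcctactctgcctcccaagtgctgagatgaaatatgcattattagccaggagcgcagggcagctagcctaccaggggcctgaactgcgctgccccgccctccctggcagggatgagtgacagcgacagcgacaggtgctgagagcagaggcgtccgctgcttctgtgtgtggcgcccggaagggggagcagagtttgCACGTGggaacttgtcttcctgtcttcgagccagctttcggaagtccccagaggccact
Ddx4, chr13:112652261-112652560, minus strand: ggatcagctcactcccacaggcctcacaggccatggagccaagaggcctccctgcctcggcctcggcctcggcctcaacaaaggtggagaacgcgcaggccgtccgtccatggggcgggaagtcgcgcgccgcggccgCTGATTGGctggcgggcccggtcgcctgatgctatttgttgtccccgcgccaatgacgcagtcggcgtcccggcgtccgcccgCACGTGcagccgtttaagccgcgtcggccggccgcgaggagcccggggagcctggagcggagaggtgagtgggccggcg
Ddx25, chr9:35558421-35558720, minus strand: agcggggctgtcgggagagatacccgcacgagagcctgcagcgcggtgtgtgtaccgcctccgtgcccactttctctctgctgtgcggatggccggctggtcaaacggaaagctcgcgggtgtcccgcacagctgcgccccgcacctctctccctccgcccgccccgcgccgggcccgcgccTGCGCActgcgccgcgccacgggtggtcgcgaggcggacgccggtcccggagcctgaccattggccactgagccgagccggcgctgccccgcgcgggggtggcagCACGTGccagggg
Ybx2, chr11:69936078-69936377, plus strand: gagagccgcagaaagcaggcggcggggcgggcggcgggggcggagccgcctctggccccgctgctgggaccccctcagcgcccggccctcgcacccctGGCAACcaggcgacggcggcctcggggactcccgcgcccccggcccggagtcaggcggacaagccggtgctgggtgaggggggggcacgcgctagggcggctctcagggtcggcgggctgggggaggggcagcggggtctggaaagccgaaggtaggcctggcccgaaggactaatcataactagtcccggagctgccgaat
Paip2b, chr6:83831692-83831991, minus strand: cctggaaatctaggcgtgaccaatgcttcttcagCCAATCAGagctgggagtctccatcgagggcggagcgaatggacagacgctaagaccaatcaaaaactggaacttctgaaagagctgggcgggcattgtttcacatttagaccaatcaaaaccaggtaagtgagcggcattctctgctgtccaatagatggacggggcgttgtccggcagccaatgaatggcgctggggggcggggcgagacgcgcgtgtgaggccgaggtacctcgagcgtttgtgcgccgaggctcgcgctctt
In these, the Y-box letters or their reverse complement stand in the first Boll entry and in Ddx4 and Paip2b, the E-box letters in the second Boll entry and in Ddx4 and Ddx25, the NRF1 core in Ddx25 and the RFX half-site, reversed, in Ybx2. The Papolb entry, of the member with the log2 change of 8.91, held none of the 5 motifs. The other Ybx2 entry, not shown, also held none. The pairing of these letters with the direction of change was not tested.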

How the data were processed

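RNA of whole testis was made into cDNA, by the authors' methods with an oligo dT primer. The cDNA was labelled with Cy3 and read on 1-colour arrays. Per spot, the authors deposited an intensity with the background subtracted by Agilent Feature Extraction 10.5.1.1, the median and background intensity, and other values such as scanner flags of 0 or 1. A log2 table was deposited too. The authors' methods name quantile normalization, but on every array 100% of the log2 values matched the floored signal (at least 5) shifted by 1 constant per array, within 0.001.

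Here, spots of a probe were averaged, each array was divided by its 75th percentile over non-control spots, a common floor of -7.22 was set, and log2 was taken. Control spots and outlier-marked spots were left out. No spot was saturated. RefSeq accessions named 97.5% of 22464 mRNA probes. A tested probe had 2 or more complete pairs and passed the background limit on 1 or more arrays. Tests used limma 3.58.1 (R 4.3.3) and a block for the replicate number, after the methods' paired test. P-values were Benjamini-Hochberg adjusted over all tested lncRNA and mRNA probes. Calls needed 5-fold and 0.05. Tables were made with pandas 2.3.3 in Python 3.11.15.

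The numbers were taken to pair the arrays because the methods name a paired test. Deviations from the age mean correlated at 0.497, 0.429 and 0.777 between arrays of the same number over 7333 probes. Unlike numbers within a scan gave 0.508 and 0.47, and arrays of different scans between -0.69 and -0.556, so number and scan are not separated by this.

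A fold given as at least N compares the brighter age with, per array, the higher of the dim probe's signal and the lowest signal well above background. The planned normexp alternative used the median spot signal, since the mean is not among the columns used. The members and lists were chosen with earlier results of these data known. Named are all member probes, close relatives, up to 2 of the largest calls per group and direction, and 6 target mRNAs. Genes of like pattern were to be named for member probes with no marked spot, and 0 of 12 qualified.

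The fitting step was tested on simulated data. Where noise came from each probe's own 3 neonatal arrays, it recovered few of the changed probes after adjustment. A second simulation, added after that was seen, drew the noise from the fitted variance prior and recovered most of them. That prior is the one the fit assumes, so this recovery cannot show how the fit does with the noise of real arrays.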

Additional observations from a re-analysis of the deposited data

How the results depend on the processing

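Of the counts of member probes, 3 were higher and 0 lower at 5-fold, and 4 higher and 1 lower on the adjusted p. With marked spots kept they were 5, 1, 7 and 4. With marked spots kept and no replicate block, added after seeing the data, they were 5, 1, 7 and 3, and by median pixel brightness, also added, 5, 1, 7 and 3. With the authors' log2 values they were 3, 2, 7 and 3. The lower count on the adjusted p was 0 with no filter on dim probes and with the methods' paired test, adjusted or not. Of the 12 member probes, 5 were tested with marked spots left out, 10 with the authors' values and 12 with marked spots kept. The higher count at 5-fold was 2 with quantile normalization, with a shift to the median and with normexp.

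For the related genes, the main counts were 13 higher and 15 lower. They were 35 and 42 at 2-fold, and 18 and 23 with marked spots kept, with or without the replicate block. The lower count was 30 of 155 tested probes with the authors' log2 values and 8 of 116 with normexp. The higher count was 6 of 116 with the methods' paired test after adjustment. Without the replicate block alone, the member counts were 3, 0, 4 and 1 and the related counts 14 and 14, and the replicate block changed no member's call with marked spots left out. With marked spots kept, Dazl held its change of -0.61 without the block, but its adjusted p rose from 0.0114 to 0.0832.

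Leaving out replicates, with or without the block and the marked spots, the member counts ranged from 1 to 6 and from 0 to 2 at 5-fold, and from 1 to 7 and from 0 to 4 on the adjusted p, and the related counts from 2 to 20 and from 6 to 24. The numbers tested differed too. Where a member count was 1 higher, 2 member probes were tested, against 12 for the largest counts. Where the related count was 2, 34 probes were tested, against 161 for the largest. With marked spots kept and no block, the higher count at 5-fold was 3 without neonatal replicate 3 and 3 without adult replicate 1. With marked spots left out, no member probe could be tested without replicate 1 or without replicate 2. Over the alternatives, Ybx2 stayed between 5.97 and 6.54, Ddx25 between 2.60 and 3.27, Papolb between 8.63 and 9.19 and Paip2b between -3.57 and -2.73, each past the adjusted p threshold. On the adjusted p alone, Dazl did not pass in 9 of 11 alternatives, Cpeb1 in 5 of 29 and Pabpc1 in 3 of 27. Of related probes that passed in the main fit, Eif4g1 did not in 3 of 29, D1Pas1 in 2 of 27, the tested Dazap1 probes in 2 and 3 of 27, and Pabpc1l, Cstf2, Adad1, Ddx3x and the NM_130881 probe of Pabpc4 in 1 each. At their smallest, the changes of Eif4g1 (-2.16), Pabpc1l (2.23), Cstf2 (-1.99), Stau2 (-2.08) and Igf2bp1 (-2.25) were below 5-fold, as were those of Mov10, Nanos2 and Patl1 with normexp.

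The direction of changes uncalled in the main fit turned in a few cases. The first Ddx4 probe, NM_001145885, ranged from -0.21 to 0.83. Ybx1 was 0.32 with normexp, 0.13 without replicate 2, and ranged from -1.66 to 0.32. Cpeb3 was 0.00 by median pixel brightness and ranged from -0.63 to 0.40. The main change of Paip1, -0.21, also turned with normexp, to 0.57, and there it passed (adjusted p = 0.00678). With quantile normalization it passed as lower (-0.65). The cause was not tested. The median log2 change of all mRNA probes was -0.39, and it was -0.74 with quantile normalization, -0.65 with a shift to the median, -0.84 with the authors' values and 0.03 with normexp. Of the 5-fold calls 48.1% were higher in adult testis, 37.0% with the authors' values and 59.2% with normexp. Arrays were 3 per age, which limits the precision, and signals near the floor have no order.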
